A study of Mus musculus with 7 samples.

Results

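The immediate-early genes described here are 38 genes of the AP-1, EGR and NR4A transcription factor families and of their early response partners, measured by RNA sequencing in natural killer (NK) cells from mouse spleen. They were chosen by name, as the genes whose Ensembl identifier maps to one of 38 mouse symbols, and all 38 were found among the 53379 genes of the deposited count table. NK cells, innate lymphocytes that kill infected or transformed cells, were isolated ex vivo by sorting for CD3- Nk1.1+ NKp46+ CD49b+ cells that were also positive for a marker the labels write as C45. The groups are 4 libraries of the genotype Hhex KO, in which the homeobox transcription factor gene Hhex is disrupted, and 3 libraries of the genotype Cre control, which carry the recombinase. All 7 are of the C57BL/6 strain. The sources used here do not give the promoter that drives Cre, the kind of Hhex allele, the age of the mice or any pooling. The design holds 1 comparison, libraries labelled Hhex KO against libraries labelled Cre control.

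Immediate-early genes are switched on within minutes of a signal, without new protein synthesis, by factors that already sit in the cell, such as SRF with its ternary complex partners and CREB. FOS and JUN proteins then pair into the AP-1 dimer, EGR and NR4A proteins bind elements of their own, and the decay factors ZFP36 and BTG2 help to remove short-lived messages. In lymphocytes these genes respond to receptor engagement and cytokines, and they also respond to tissue dissociation and cell sorting.

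Total counts were 10589915 to 18456404 per library. Hhex itself, whose counts cover the whole gene and so do not show which exons remain, ran from 93.5 to 96.1 CPM (counts scaled to a common library size by TMM) in the 3 controls and from 54.2 to 64.8 CPM in the 4 Hhex KO libraries, a lower level in all 4. The NK markers Ncr1, Klrb1c and Eomes were at 711 CPM or more in every library, and 0 of 12 NK markers passed the edgeR test at an adjusted p below 0.05 (2 at an unadjusted p below 0.05, 1 with DESeq2, 0 with limma-voom). The Hhex KO libraries fell into pairs: a chi-square per degree of freedom of their counts was 28 between replicates 1 and 4 and 11 between replicates 2 and 3, against 69.9 to 78.3 between the pairs. The summed level of a list of nuclear-retained RNAs, nearly all of it Malat1 and Neat1, separated them the same way, at 1130.1 and 1059 CPM in replicates 1 and 4 and 202 and 179 CPM in replicates 2 and 3, with 316 to 806 CPM in Cre control. Replicate 4 also carries the sample number 95 in the labels, where the other libraries carry 20 to 28. Counts below are therefore also given without these libraries.

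Most early response genes had lower fitted levels in Hhex KO, and few of them passed the test. Of the 38 genes, all of which passed the filter on low counts, 6 fell and 0 rose at an adjusted p below 0.05 by edgeR's quasi-likelihood test, where 1.87% of the 12161 genes tested fell and 2.68% rose. The 6 were Jund, Btg1, Btg2, Ier5, Rhob and Tsc22d3. At an unadjusted p below 0.05, 24 of 38 were lower (8.45% of all genes tested) and 0 were higher, and DESeq2 and limma-voom also called 0 higher. The fitted fold change was negative for 37 of 38, against 47.3% of all genes tested, and below -1 on the log2 scale for 21 of 38, against 2.48%. The median log2 fold change was -1.07 over the 38 and 0.02 over all genes tested. For 23 of the 38 every Hhex KO library lay below every Cre control library in CPM, against 9.98% of all genes tested, and for 0 of 38 did every Hhex KO library lie above (9.37%). Together the 38 genes took 1.29% to 1.77% of the scaled reads in Cre control and 0.315% to 0.805% in Hhex KO. In bulk RNA, fewer cells that express a gene and less RNA per cell cannot be told apart.

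The number of calls depended on the library set. Without Hhex KO replicate 4, 8 of 38 fell (2.40% of all genes tested), the same 6 and Csrnp1 and Ier2. With replicates 1 and 4 both left out, 18 fell (14.3%), again with all 6 among them. Without Hhex KO replicate 1, 15 fell (1.62%), 5 of the 6 among them, and without Hhex KO replicate 3 only 3 fell (0.902%). Without Cre control replicate 1, edgeR called 0 of 38 (0.397% of all genes tested), with 18 lower at an unadjusted p below 0.05. Without Cre control replicates 2 and 3 in turn it called 4 (0.651%) and 1 (0.459%). DESeq2 called 16 (3.86%), limma-voom 9 (2.06%) and limma-voom with sample quality weights 28 (10.9%), each including the same 6. RLE scaling (1.97%), upper-quartile scaling (1.73%) and a stricter filter (2.12%) left the same 6, no filter gave 7 (0.976%, Rhob lost, Fosl2 and Gadd45b gained), and without Hhex KO replicate 2 there were 5 (1.26%), all but Tsc22d3.

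**Figure D1:**
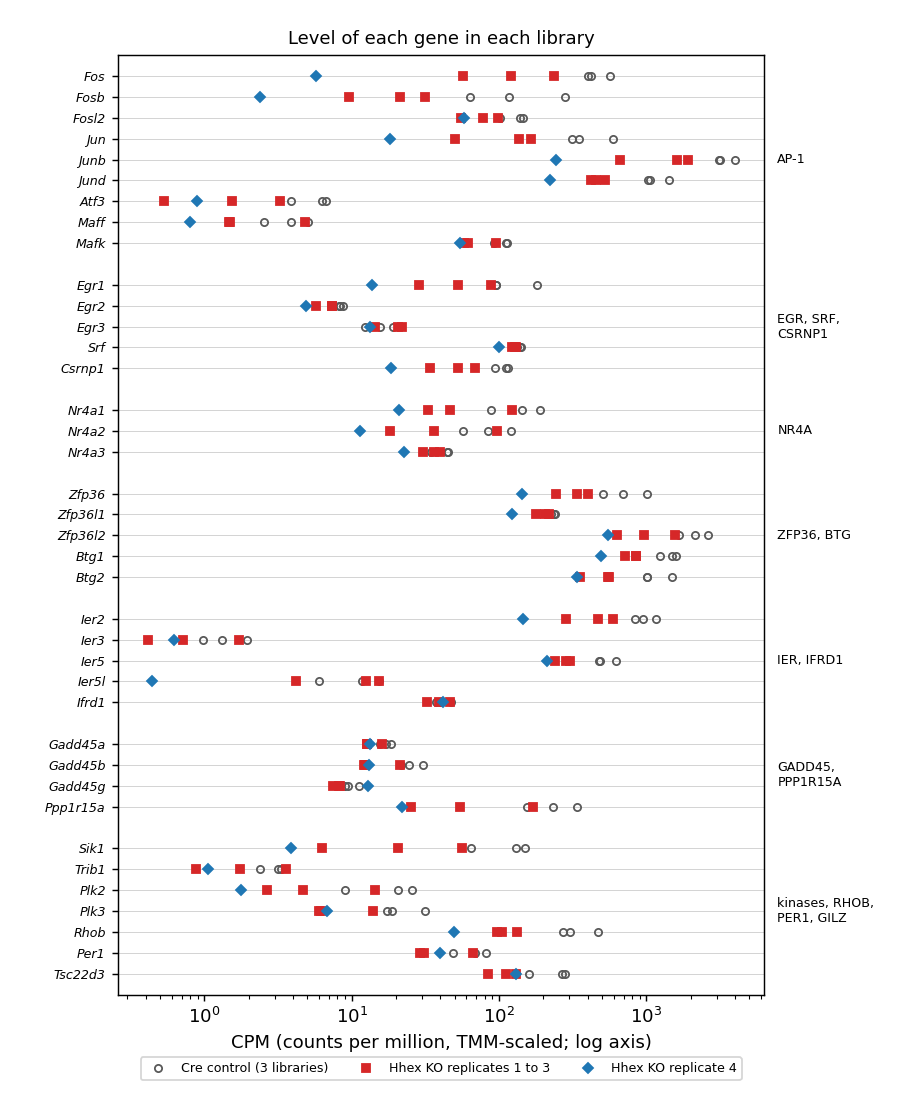
Level of the 38 genes in each library, in CPM on a log axis, grouped by role. Open circles are the 3 Cre control libraries, red squares Hhex KO replicates 1 to 3 and blue diamonds Hhex KO replicate 4, which was the lowest Hhex KO library for 27 of 38 genes.

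Promoters of the early response genes carry short elements through which they are induced, and the 250 bases before the RefSeq start site were searched on both strands for 7 of them. Of the 38 genes, 32 matched the RefSeq promoter table (GRCm38.p6), and the most upstream start of each gene was used. Egr1, Egr3, Ier2, Sik1, Trib1 and Zfp36l2 had no entry. The cyclic AMP response element TGACGTCA stood in 3 of 32 (Btg2, Plk2 and Ppp1r15a), or 9.38%, against 1.60% of 27025 genes. The EGR site GCGGGGGCG stood in 6 of 32 (Fosb, Fosl2, Mafk, Srf, Nr4a1 and Zfp36), or 18.8%, against 2.55%, and GCGTGGGCG in 1 of 32 (Ifrd1), or 3.12%, against 0.54%. The CArG box, the SRF binding element, stood in 2 of 32 (Srf, with a pair of matches, and Zfp36), or 6.25%, against 1.41%. All 250 bases of Fosl2, Zfp36 and Ifrd1 lay in annotated GENCODE exons, and so did their matches. For Ppp1r15a the match, 12 to 5 bases before the start, lay outside the longest exon-free stretch, 250 to 174 bases before it. The octamer TGACATCA stood in Jun alone, or 3.12%, against 2.99%, and the AP-1 heptamer TGACTCA and the NR4A element AAAGGTCA stood in 0 of 32, against 4.43% and 1.31% of all genes. These windows were richer in G and C than most, with a median of 63.0% in the 32 against 52.0% in all genes, and the part of base composition in these shares was not tested. Of the 6 genes that fell, all of which were searched, 1, Btg2, held any of these elements in this window. For Jund the window (chr8:70697489-70697738) ended well before the GENCODE start of the gene at 70698949. For Tsc22d3 only the most upstream of 3 RefSeq starts was searched. The bases just before the GENCODE start of Jund and before the other starts of Tsc22d3 were thus not searched. The promoters below show these elements in a gene that fell (Btg2) and in 3 that did not pass the test (Plk2, Jun and Srf). Fos is printed as well, without an exact match to any of the 7 in these 250 bases. Bases further upstream and inexact matches were not searched, so a gene without a match here may still hold such an element. Sequences run 5′ to 3′ on the gene's strand, matches are in capitals, and no exon base is included.
Btg2 (chr1:134079156-134079405, minus strand) holds TGACGTCA, Plk2 (chr13:110394794-110395043, plus strand) holds TGACGTCA, Jun (chr4:95052223-95052472, minus strand) holds TGACATCA, Srf (chr17:46556176-46556412, minus strand) holds GCGGGGGCG and 2 CArG boxes, and Fos lies at chr12:85473640-85473889 (plus strand).
Btg2: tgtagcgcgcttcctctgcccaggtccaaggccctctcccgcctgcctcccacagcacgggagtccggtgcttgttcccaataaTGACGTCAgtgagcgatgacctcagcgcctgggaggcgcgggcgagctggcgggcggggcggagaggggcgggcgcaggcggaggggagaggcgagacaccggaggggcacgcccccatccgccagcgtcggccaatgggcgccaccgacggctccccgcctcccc
Plk2: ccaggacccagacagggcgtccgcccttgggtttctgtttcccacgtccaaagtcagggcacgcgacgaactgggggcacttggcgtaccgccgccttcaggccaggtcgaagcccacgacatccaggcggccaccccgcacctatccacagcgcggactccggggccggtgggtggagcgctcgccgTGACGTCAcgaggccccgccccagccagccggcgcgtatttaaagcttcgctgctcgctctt
Jun: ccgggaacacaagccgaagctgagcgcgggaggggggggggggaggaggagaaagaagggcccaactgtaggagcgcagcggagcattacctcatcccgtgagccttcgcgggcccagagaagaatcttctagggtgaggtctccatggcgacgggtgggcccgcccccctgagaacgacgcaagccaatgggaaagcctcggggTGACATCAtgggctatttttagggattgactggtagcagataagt
Srf: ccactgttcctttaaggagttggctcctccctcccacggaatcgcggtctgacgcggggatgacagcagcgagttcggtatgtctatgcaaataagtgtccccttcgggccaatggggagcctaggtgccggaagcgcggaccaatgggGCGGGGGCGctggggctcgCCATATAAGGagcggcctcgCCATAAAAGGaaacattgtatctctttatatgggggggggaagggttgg
Fos: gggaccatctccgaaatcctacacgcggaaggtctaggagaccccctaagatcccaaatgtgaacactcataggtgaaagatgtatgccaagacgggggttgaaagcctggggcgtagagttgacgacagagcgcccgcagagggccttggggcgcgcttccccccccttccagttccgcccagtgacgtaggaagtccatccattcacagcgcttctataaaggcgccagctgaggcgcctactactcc

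AP-1 subunits had the lowest median of the role groups, a log2 fold change of -1.63 over 9 genes, 1 of which fell. To set beside the counts in each role group and list, edgeR called 1.87% of all genes tested lower, DESeq2 3.86% and limma-voom 2.06%. At an unadjusted p below 0.05 edgeR had 8.45% lower, and 9.98% were lower with groups that did not overlap. In what follows, values are listed for replicates 1 to 3 of Cre control and then for replicates 1 to 4 of Hhex KO. Jund (ENSMUSG00000071076.6, GRCm38 chromosome 8, 70698949 to 70700616), which encodes the JUN family member that is present in resting cells, was at 1424, 1065 and 1024 CPM in Cre control and 424, 521, 459 and 222 CPM in Hhex KO. All 4 Hhex KO libraries lay well below the controls, replicate 4 lowest, and the result was a fitted log2 fold change of -1.53 ± 0.27 (adjusted p = 0.018). The call was lost when any 1 Cre control library was left out, at adjusted p values of 0.0511 to 0.0870. Exons of Gm11175, on the other strand, overlap 877 bases of Jund. Prdx2 overlaps Junb by 173 bases and Junos overlaps Jun by 232 bases in the same way. The strand setting of the counting is not given in the sources, so reads of these pairs cannot be told apart where they overlap. Over all 7 libraries together, the counts given to Gm11175, Prdx2 and Junos were 471, 9664 and 31. Junb (ENSMUSG00000052837.6, GRCm38 chromosome 8, 84974484 to 84978718), an AP-1 subunit induced by cytokines, had the highest level per transcript length of the 38 genes, 4792 ± 576 TPM (SD, n = 3) in Cre control (TPM, reads scaled by exon length). It was at 3999.7, 3154 and 3135 CPM in Cre control and 1620.2, 1914, 664 and 244 CPM in Hhex KO. All 4 Hhex KO libraries lay below the Cre control libraries but spread over 7.86-fold among themselves, and Junb did not pass the test (-1.63 ± 0.59 on the log2 scale, adjusted p = 0.184).

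Fos (ENSMUSG00000021250.13, GRCm38 chromosome 12, 85473890 to 85477273), the founding member of the FOS family, was at 571, 403 and 424 CPM in Cre control and 121, 238, 57.3 and 5.76 CPM in Hhex KO. The groups did not overlap, replicate 4 was by far the lowest and replicate 2 the nearest to the controls. With a 41.3-fold range within Hhex KO, Fos did not pass the test (-2.14 ± 0.87, adjusted p = 0.237). Jun (ENSMUSG00000052684.4, GRCm38 chromosome 4, 95049034 to 95052222), its main partner, was at 594, 348 and 313 CPM in Cre control and 164, 137, 50.5 and 18.2 CPM in Hhex KO. Fosb, a FOS paralogue, was at 279, 63.4 and 117 CPM in Cre control and 31.3, 21.4, 9.66 and 2.39 CPM in Hhex KO. For both genes the groups did not overlap, and Fosb had the lowest fitted fold change of the 38, -3.23 ± 0.76 on the log2 scale (adjusted p = 0.055), against -2.17 ± 0.65 for Jun (adjusted p = 0.11). Fosl2, which encodes FRA-2, a FOS-related subunit, varied less. It was at 139.7, 102 and 146 CPM in Cre control and 98.6, 77.5, 55.0 and 57.5 CPM in Hhex KO, without overlap, with a fitted log2 fold change of -0.84 ± 0.22 (adjusted p = 0.07). Atf3, a stress-induced repressor that pairs with JUN, was a low-level gene at 6.74, 3.87 and 6.27 CPM in Cre control and 3.24, 1.55, 0.53 and 0.886 CPM in Hhex KO, also without overlap (-1.85 ± 0.53, adjusted p = 0.0923). Maff and Mafk, small MAF proteins that lack a transactivation domain, overlapped between the groups, with log2 fold changes of -0.82 ± 0.55 (adjusted p = 0.499) and -0.65 ± 0.20 (adjusted p = 0.117). With Hhex KO replicates 1 and 4 both left out, Fosl2, Atf3, Maff and Mafk passed 0.05 beside Jund, while Fos, Fosb, Jun and Junb did not.

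**Figure D2:**
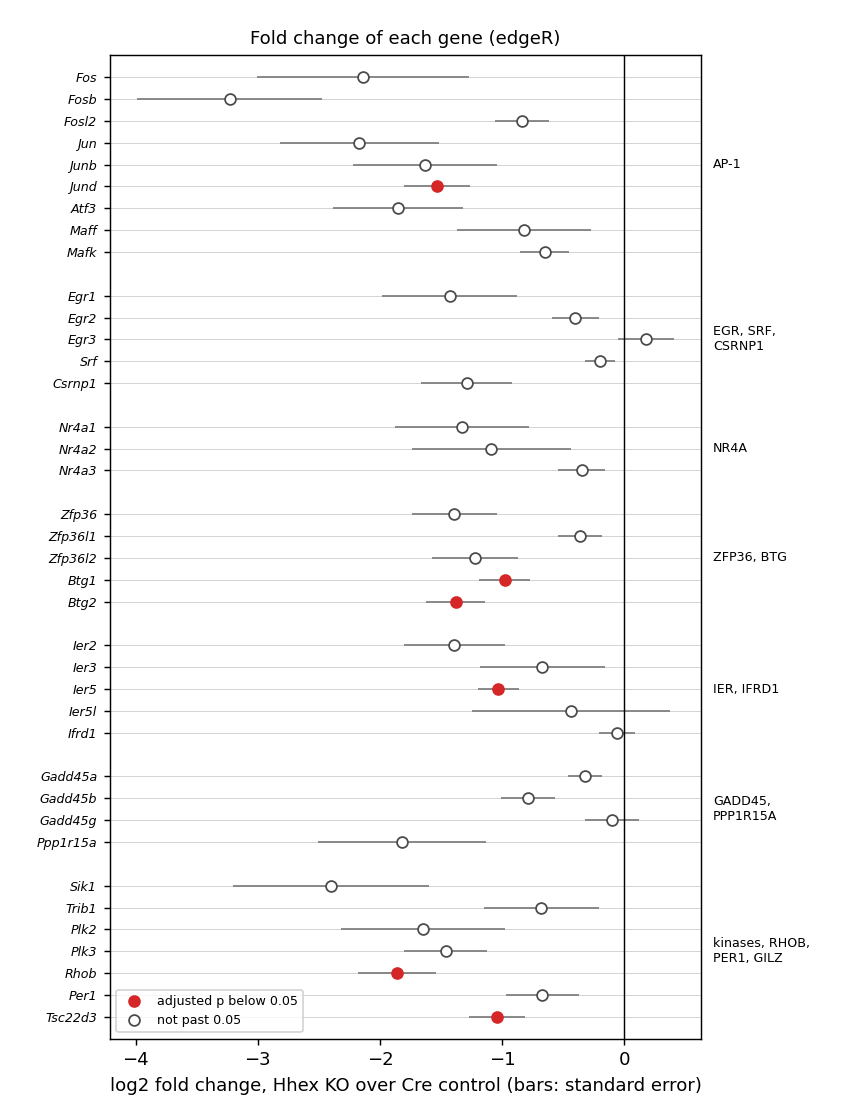
Log2 fold change of the 38 genes, Hhex KO over Cre control, with bars for the standard error. Filled points are the 6 genes that passed an adjusted p of 0.05, and Egr3, at 0.18, is the only point above 0.

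Among EGR factors, SRF and CSRNP1, 0 of 5 genes passed the edgeR test (2 at an unadjusted p below 0.05, 1 with DESeq2, 0 with limma-voom) and the genes differed in size of change. Egr1, a zinc finger factor induced through SRF, was at 182, 94.9 and 94.8 CPM in Cre control and 87.9, 52.7, 28.7 and 13.8 CPM in Hhex KO. Its groups did not overlap, although replicate 1 of Hhex KO came close to the controls, and the fitted log2 fold change of -1.43 ± 0.55 (adjusted p = 0.208) did not pass the test. Csrnp1, a nuclear protein named for its cysteine- and serine-rich region, was at 115, 93.9 and 111 CPM in Cre control and 68.7, 52.5, 34.0 and 18.4 CPM in Hhex KO. Every Hhex KO library was below the controls (-1.29 ± 0.37, adjusted p = 0.0984), and Csrnp1 was the 1 gene of this group past 0.05 with DESeq2 (adjusted p = 0.00603) and without Hhex KO replicate 4 (0.0488). Egr2 and Egr3, which restrain lymphocyte activation, were low and differed little between the libraries. Egr2 was at 8.17, 8.71 and 8.27 CPM in Cre control and 5.76, 7.39, 7.30 and 4.87 CPM in Hhex KO, with a fitted log2 fold change of -0.40 ± 0.19 (adjusted p = 0.323). Egr3 was at 12.3, 19.1 and 15.5 CPM in Cre control and 14.5, 22.1, 20.6 and 13.3 CPM in Hhex KO, with overlapping groups, and its log2 fold change of 0.18 ± 0.23 (adjusted p = 0.774) was the only positive value of the 38. Srf (ENSMUSG00000015605.5, GRCm38 chromosome 17, 46548329 to 46556175), the factor that binds the CArG box of many early genes, was at 139, 133 and 141 CPM in Cre control and 130.4, 123, 128 and 100.3 CPM in Hhex KO. Its 2 CArG boxes are shown in its promoter above. The Srf libraries were tight and the groups were apart by a small margin (-0.20 ± 0.12 on the log2 scale, adjusted p = 0.44).

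The NR4A orphan receptors, which limit activation in lymphocytes, had 0 of 3 genes past 0.05 with edgeR (1 at an unadjusted p below 0.05, 0 with DESeq2 and with limma-voom). Nr4a1, which encodes NUR77, was at 190.1, 88.8 and 142 CPM in Cre control and 122, 46.7, 33.1 and 20.99 CPM in Hhex KO. Hhex KO replicate 1 lay within the control range and the other 3 below it, with a fitted log2 fold change of -1.33 ± 0.55 (adjusted p = 0.248). Nr4a2 overlapped, from 11.4 to 97.2 CPM in Hhex KO against 56.6 to 120.1 CPM in the controls (-1.09 ± 0.65, adjusted p = 0.436). Nr4a3 varied least, at 22.7 to 39.5 CPM against 34.7 to 45.2 CPM (-0.35 ± 0.19, adjusted p = 0.382). Without Hhex KO replicate 1, Nr4a1 passed 0.05 at -2.07 on the log2 scale (adjusted p = 0.0333).

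Among the mRNA decay factors of the ZFP36 and BTG families, 2 of 5 genes fell, against 1.87% of all genes tested. The groups of all 5 did not overlap, lower in Hhex KO, against 9.98% of all genes tested. Btg2 (ENSMUSG00000020423.6, GRCm38 chromosome 1, 134075170 to 134079120), an antiproliferative adaptor of the CCR4-NOT deadenylase whose promoter with its TGACGTCA is printed above, was at 1483, 1016 and 1013 CPM in Cre control and 552, 556, 352 and 339 CPM in Hhex KO. The Hhex KO libraries were all below the controls and close to each other, and the fitted log2 fold change of -1.38 ± 0.24 (adjusted p = 0.0148) kept its call with Hhex KO replicates 1 and 4 both left out (-1.38, adjusted p = 0.0200). The call of Btg2 was lost without Cre control replicate 1 (adjusted p = 0.0767) and replicate 3 (0.0559). Btg1 (ENSMUSG00000036478.8, GRCm38 chromosome 10, 96617006 to 96622809), its relative and a factor of lymphocyte quiescence, was at 1599, 1231 and 1487 CPM in Cre control and 856, 846, 719 and 490.4 CPM in Hhex KO, again with all 4 Hhex KO libraries below the controls and a fitted log2 fold change of -0.98 ± 0.21 (adjusted p = 0.0334). It lost its call without Cre control replicates 1, 2 and 3 in turn (adjusted p = 0.150, 0.0708 and 0.138) and without Hhex KO replicate 3 (0.0807).

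Zfp36, which encodes tristetraprolin, a protein that binds AU-rich elements and speeds the decay of cytokine messages, was at 1009.6, 697 and 510.3 CPM in Cre control and 337, 404, 244 and 144 CPM in Hhex KO. Its groups did not overlap and its log2 fold change was -1.39 ± 0.35 (adjusted p = 0.0686). Zfp36l2, a paralogue of the same binding type, had the highest level per length of this group, 1978 ± 529 TPM (SD, n = 3) in Cre control, and was at 2141, 1678 and 2641 CPM in Cre control and 1555, 967, 630.2 and 552 CPM in Hhex KO. Replicate 1 of Hhex KO stood just under the lowest control, with a fitted log2 fold change of -1.22 ± 0.35 (adjusted p = 0.0995). Zfp36l1, the other paralogue, differed little, at 225, 236 and 239.6 CPM in Cre control and 205, 218, 179.7 and 123 CPM in Hhex KO (-0.36 ± 0.18, adjusted p = 0.346). An antisense gene, Gm26669, overlaps 1672 bases of Zfp36l1 exons. Zfp36 and Zfp36l2 passed 0.05 with DESeq2 (adjusted p = 0.000905 and 0.00557), whereas Zfp36l1 did not pass it in any of the alternatives run.

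In the IER group and its neighbour Ifrd1, 1 of 5 genes fell, against 1.87% of all genes tested. Ier5 (ENSMUSG00000056708.5, GRCm38 chromosome 1, 155096361 to 155099636), an early response gene linked to heat shock factor activity, was at 625, 485 and 476 CPM in Cre control and 283, 303, 240.2 and 211 CPM in Hhex KO. It had the tightest Hhex KO libraries of the 6 called genes, with an SD of 0.235 on the log2(CPM + 0.5) scale, and a fitted log2 fold change of -1.03 ± 0.17 (adjusted p = 0.0123). Of the 16 alternatives run, its call was lost only without Cre control replicate 1 (adjusted p = 0.0639). Ier2, a nuclear protein induced with FOS, had the highest level per length of the group, 2069 ± 264 TPM (SD, n = 3) in Cre control, and was at 1155, 949.6 and 839.6 CPM in Cre control and 473, 597, 283 and 147 CPM in Hhex KO. The groups did not overlap, Hhex KO spread over 4.08-fold, and Ier2 did not pass the test (-1.39 ± 0.41, adjusted p = 0.108) but did with DESeq2 (0.00478). Ier3, an early gene linked to cell survival, was below 2 CPM in every library (-0.67 ± 0.51, adjusted p = 0.562). Ier5l ran from 0.443 to 15.2 CPM in Hhex KO against 6.00 to 15.2 CPM in the controls (-0.44 ± 0.81, adjusted p = 0.858). Ifrd1, a transcriptional coregulator, overlapped, at 32.5 to 46.6 CPM in Hhex KO against 37.5 to 47.1 CPM (-0.06 ± 0.15, adjusted p = 0.905).

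Of the GADD45 genes and Ppp1r15a, 0 of 4 passed the edgeR test (2 at an unadjusted p below 0.05, 1 with DESeq2, 0 with limma-voom). Ppp1r15a, which encodes GADD34, the phosphatase subunit that reverses translational arrest after stress, was at 336, 155 and 232 CPM in Cre control and 171, 54.6, 25.4 and 21.8 CPM in Hhex KO. It ranged 7.85-fold within Hhex KO, where replicate 1 lay inside the control range and the other 3 far below it, with a fitted log2 fold change of -1.82 ± 0.69 (adjusted p = 0.202). Gadd45b, a sensor that feeds the p38 and JNK cascades, was at 30.4, 24.5 and 21.5 CPM in Cre control and 21.2, 12.2, 12.4 and 13.1 CPM in Hhex KO. Its groups did not overlap (-0.79 ± 0.22, adjusted p = 0.0913), and it passed 0.05 with DESeq2 (0.0279) and with Hhex KO replicates 1 and 4 both left out (0.00165). Gadd45a and Gadd45g, its relatives, lay closer to the controls, with log2 fold changes of -0.32 ± 0.14 (adjusted p = 0.288) and -0.10 ± 0.22 (adjusted p = 0.878).

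The remaining 7 genes encode kinases, a pseudokinase, a small GTPase, a clock protein and a glucocorticoid-induced factor. Of these 7, 2 fell, against 1.87% of all genes tested. Rhob (ENSMUSG00000054364.5, GRCm38 chromosome 12, 8497661 to 8500009), an early-induced small GTPase of endosomes, was at 470.2, 305 and 272 CPM in Cre control and 104, 133, 96.6 and 49.3 CPM in Hhex KO. All 4 Hhex KO libraries lay far below the controls, and the fitted log2 fold change of -1.86 ± 0.32 (adjusted p = 0.018) was the lowest of the 6 called. The call of Rhob was lost without Cre control replicates 1 and 3 and Hhex KO replicate 3 (adjusted p = 0.0771, 0.0502 and 0.0506) and with no filter on low counts (0.0583). Tsc22d3 (ENSMUSG00000031431.13, GRCm38 chromosome X, 140539528 to 140600659), which encodes GILZ, a leucine zipper protein induced by glucocorticoids and FOXO factors, was at 280.0, 159 and 267 CPM in Cre control and 131, 111, 83.9 and 131 CPM in Hhex KO. All 4 Hhex KO libraries lay below the controls and, unlike for most of these genes, replicate 4 was level with replicate 1. The result was a fitted log2 fold change of -1.04 ± 0.23 (adjusted p = 0.0361). The call of Tsc22d3 was lost without Cre control replicates 1 and 3 (adjusted p = 0.174 and 0.169) and without Hhex KO replicates 1, 2 and 3 (0.0648, 0.0775 and 0.0744).

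Sik1, a salt-inducible kinase that holds back CREB coactivators, was at 150.1, 64.8 and 129.7 CPM in Cre control and 56.1, 20.7, 6.24 and 3.90 CPM in Hhex KO. The groups did not overlap, and the range within Hhex KO was 14.4-fold, with a fitted log2 fold change of -2.40 ± 0.80 (adjusted p = 0.148). Plk3, a polo-like kinase of the stress response, was at 31.6, 18.7 and 17.4 CPM in Cre control and 13.9, 6.01, 6.19 and 6.82 CPM in Hhex KO, without overlap (-1.46 ± 0.34, adjusted p = 0.0522). It passed 0.05 with DESeq2 (adjusted p = 0.00131), limma-voom (0.0373) and without Hhex KO replicate 1 (0.0155). Plk2, whose promoter with a TGACGTCA is printed above, overlapped through Hhex KO replicate 1, which was at 14.4 CPM where replicates 2 to 4 ran from 1.77 to 4.64 CPM and the controls from 9.06 to 25.9 CPM (-1.65 ± 0.67, adjusted p = 0.24). Trib1, a pseudokinase at 2.40 to 3.30 CPM in the controls, and Per1, a repressor of the circadian clock, overlapped, with log2 fold changes of -0.68 ± 0.47 (adjusted p = 0.51) and -0.67 ± 0.30 (adjusted p = 0.288).

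The Hhex KO libraries were spread widely for many of these genes. The median log2 ratio of the 38 genes to the Cre control mean was -0.50, -0.99, -1.42 and -1.76 in Hhex KO replicates 1, 2, 3 and 4, while that of all genes tested was -0.02 to 0.00. It was 0.24, -0.20 and -0.01 in Cre control replicates 1, 2 and 3. Replicate 4 was the lowest of the 4 Hhex KO libraries for 27 of 38 genes (34.3% of all genes tested) and for 26 the lowest of all 7 (22.6%). Replicates 1 and 4, the pair set apart over the whole transcriptome, thus stood at opposite ends for the early genes. Cre control replicate 1 was the highest of all 7 libraries for 27 of 38 (13.1%). A range of at least 5-fold within Hhex KO was found for 13 of 38 genes (5.23% of all genes tested) and within Cre control for 0 (1.60%). The median SD within Hhex KO, on the log2(CPM + 0.5) scale, was 0.580 over the 38 genes and 0.259 over all genes tested, and within Cre control it was 0.312 and 0.153. The 6 genes that fell had SDs of 0.235 to 0.609 within Hhex KO, and Fos, Sik1, Fosb, Jun and Junb had 2.28, 1.66, 1.53, 1.45 and 1.37.

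**Figure D3:**
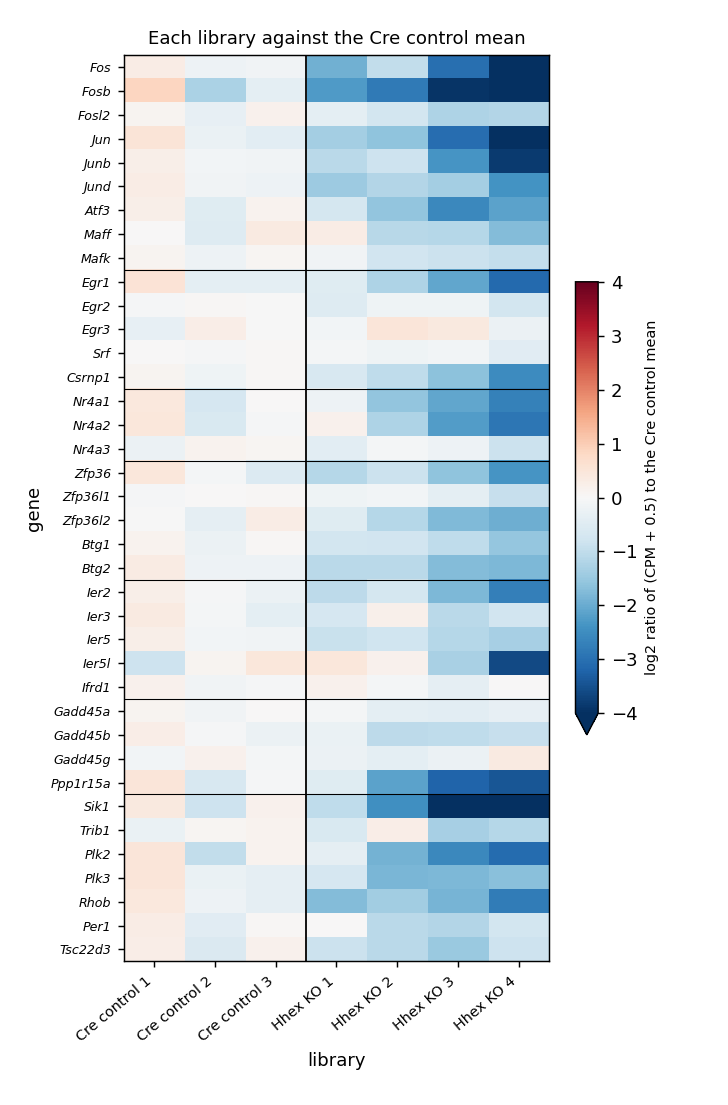
Log2 ratio of each library to the Cre control mean for the 38 genes (CPM + 0.5), ordered by role, with a vertical line between Cre control and Hhex KO; the colour scale ends at -4. The Hhex KO columns run from a median of -0.50 in replicate 1 to -1.76 in replicate 4, with Fos, Fosb, Jun and Sik1 among the darkest cells.

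Genes around the early response were examined from lists that do not hold the 38 genes, apart from Per1 and Tsc22d3. Of 30 tested early response and dissociation-associated genes outside the 38, 5 fell and 1 rose, against 1.87% and 2.68% of all genes tested. Their median log2 fold change was -0.64. Of the same 30, DESeq2 called 13 lower (3.86% of all genes tested) and 1 higher, and limma-voom 8 (2.06%) and 1. With sample quality weights limma-voom called 17 lower (10.9%) and 5 higher. With Hhex KO replicates 1 and 4 both left out, edgeR called 13 lower (14.3%) and 5 higher. Over all genes, more were also called higher in these settings, as counted in the closing section. The genes that fell were Klf6 (-1.47 ± 0.21, adjusted p = 0.00796), the NF-kappaB inhibitor gene Nfkbia (-1.28 ± 0.25, 0.0275), Klf2 (-0.77 ± 0.16, 0.0312), Dusp2 (-1.03 ± 0.23, 0.0428) and the G protein regulator gene Rgs1 (-2.20 ± 0.50, 0.0479). Myc rose (0.56 ± 0.13, adjusted p = 0.0481). The MAP kinase phosphatase gene Dusp1 also spread widely in Hhex KO, at 762, 509.9 and 576 CPM in Cre control and 259.6, 227, 60.0 and 8.15 CPM in Hhex KO, with a fitted log2 fold change of -2.15 ± 0.87 (adjusted p = 0.239). The 7 heat shock genes of this list ran from -0.27 (Dnajb1) to 0.73 (Hspa8) on the log2 scale, with adjusted p values of 0.283 or more. Hspa8 was at 763, 811 and 749 CPM in Cre control and 932, 2000, 1504 and 708 CPM in Hhex KO. Like Hspa8, Hsp90aa1 and Dnaja1 were highest in Hhex KO replicates 2 and 3, whereas the low-level Hspa1a and Hspa1b were highest in replicate 1. The sources used here give neither the time from tissue to lysis nor the sort conditions of each library.

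Lists of upstream regulators of the early genes and of related pathways gave few calls. Of 15 tested upstream transcription factors 1 fell, the ternary complex factor gene Elk3, at 256, 263 and 269 CPM in Cre control and 191, 179, 181 and 155 CPM in Hhex KO (-0.57 ± 0.11, adjusted p = 0.0247). Of 21 tested genes of the MAP kinase cascade 0 passed the edgeR test (3 at an unadjusted p below 0.05, 0 with DESeq2 and with limma-voom), with a median log2 fold change of -0.07. Of 14 tested other AP-1 and MAF family genes 1 fell, Atf4, the effector of the integrated stress response (-0.90 ± 0.19, adjusted p = 0.0351), and it was also the 1 of 8 tested genes of that response to fall. A list of deadenylation genes and other regulators of mRNA decay had 0 of 14 past 0.05 (1 at an unadjusted p below 0.05, 0 with DESeq2 and with limma-voom) and a median of -0.09. Beside CCR4-NOT, TOB and BTG genes it holds Elavl1, Zc3h12a, Rc3h1 and Rc3h2. Of the 4 tested EGR and NR4A partners 0 passed (2 at an unadjusted p below 0.05, 1 with DESeq2, 0 with limma-voom). Of 10 genes on a glucocorticoid list, targets and the receptor gene Nr3c1, 1 fell, Tsc22d3. At an unadjusted p below 0.05, 3 of the 10 were lower, and DESeq2 and limma-voom each called 1. Of 13 clock genes 0 passed (7 at an unadjusted p below 0.05, 2 with DESeq2, 0 with limma-voom). The 7 clock genes went both ways: 4 were higher, with groups that did not overlap (Nr1d1 at 1.19 ± 0.33, Hlf at 1.12 ± 0.35, Cry1 at 0.76 ± 0.19 and Arntl at 0.48 ± 0.17), and 3 were lower (Ciart at -1.34 ± 0.57, Tef at -0.73 ± 0.19 and Nr1d2 at -0.54 ± 0.17), with adjusted p values of 0.0613 to 0.255.

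**Figure D4:**
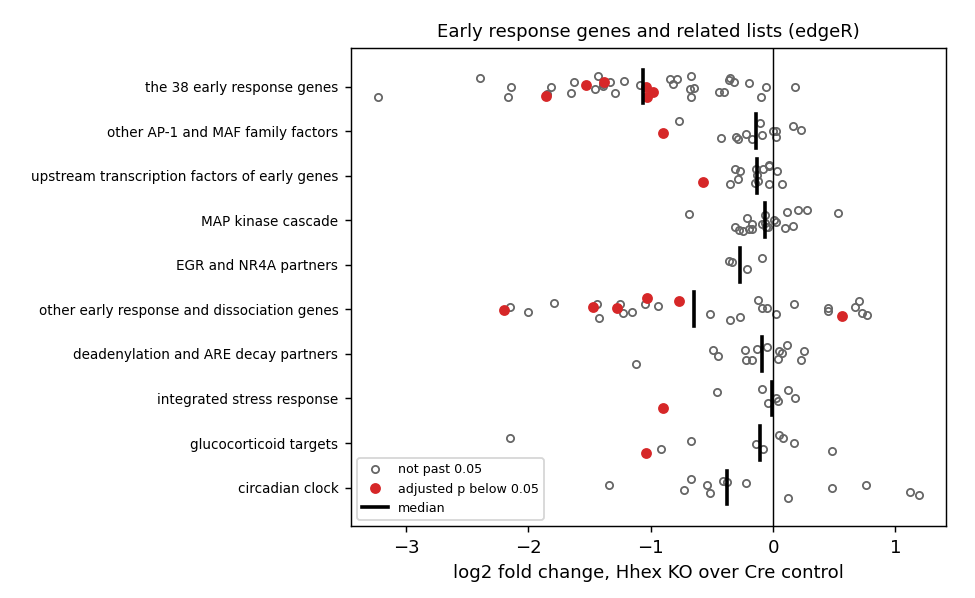
Log2 fold changes of the 38 genes and of 9 related lists, 1 point per gene, with the median as a bar. The 38 genes have a median of -1.07 and the MAP kinase cascade one of -0.07; red points passed an adjusted p of 0.05.

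Markers of other cells were checked beside these values. The summed level of 7 B cell markers was 215 to 261 CPM in the controls against 246 to 407 CPM in Hhex KO (1 of 4 tested rose, Cd79b), that of 9 T cell markers 273 to 322 against 388 to 454 CPM (1 of 6 tested rose, Trbc2, and 5 were higher at an unadjusted p below 0.05), that of 9 myeloid markers 1049.8 to 1303 against 869.6 to 1602 CPM and that of 7 erythroid and platelet markers 20.2 to 32.2 against 3.63 to 50.7 CPM. Of the last pair of lists 0 of 9 and 0 of 6 passed the edgeR test (1 and 2 at an unadjusted p below 0.05, 0 and 1 with DESeq2, 0 and 0 with limma-voom). Among T cell markers, Cd3d, a subunit of the T cell receptor complex, was at 20.5, 30.3 and 16.5 CPM in Cre control and 36.8, 57.2, 49.7 and 30.6 CPM in Hhex KO (0.97 ± 0.27, adjusted p = 0.089), without overlap. The T cell sum came mostly from Trbc1 and Trbc2, at 155 and 108 CPM of the 322 CPM in Cre control replicate 1. Cd4, Cd8a and Cd8b1 did not pass the filter on low counts. Cd8a and Cd8b1 reached at most 0.458 and 0.453 CPM, and Cd4 was at 2.91 CPM in Hhex KO replicate 1 and at most 0.968 CPM elsewhere. The myeloid sum came mostly from Fcer1g and Itgam, which NK cells also express. Hhex KO replicate 2 stood apart for the granulocyte gene S100a8, at 8.09, 12.1 and 6.27 CPM in Cre control and 18.3, 112, 4.18 and 3.90 CPM in Hhex KO, and for the macrophage and granulocyte gene Lyz2, at 32.4, 86.1 and 25.3 CPM in Cre control and 30.9, 200.3, 12.2 and 5.05 CPM in Hhex KO. S100a9 and Csf1r were also highest in that library, at 146 and 21.7 CPM. Without Hhex KO replicate 2, 5 of the 38 early genes fell, as given above. Markers of type 1 innate lymphoid cells (ILC1) summed to 87.4 to 112 CPM in the controls against 482 to 648 CPM in Hhex KO, and 8 of 8 rose. The T cell and ILC1 sums were higher in all 4 Hhex KO libraries and the B cell sum in replicates 1 to 3, while the early genes were lower, and their part in the result was not tested.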

How the data were processed

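RNA of 4 Hhex KO and 3 Cre control samples of sorted splenic NK cells was sequenced with a directional kit and single-end reads of 75 bp, per the labels' protocols. The authors deposited raw read counts per gene, unnormalized, in 1 column per sample, with STAR, featureCounts and the build mm10 named, without versions, per the submitters' processing notes. The sources used here do not give the strand setting or the annotation release. Columns were matched to samples by description, 0 were left unused, and 99.8% of identifiers matched a symbol without their version. Coordinates and exon lengths are those of GENCODE M21 (GRCm38, 1-based).

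Counts were tested with edgeR 4.0.16 in R 4.3.3: filter by group (minimum count 10, minimum total 15), TMM factors, quasi-likelihood F test with robust dispersions and no covariate, Benjamini-Hochberg adjustment over the 12161 genes tested, called below 0.05. Standard errors were taken as the log2 fold change over the root of F. Values in CPM are per TMM-scaled library and TPM use the summed exon length. The filter asks for about 0.673 CPM, which 35 of the 38 genes reached in all 7 libraries and 37 in at least 3 libraries of each group. The design text calls the libraries biological replicates without naming animals, so p-values speak only to the spread among these libraries, which may be technical. Replicate libraries differed beyond sampling noise (chi-square per degree of freedom 11 to 78.3) and each counted once. In simulated counts of the 12161 genes for this comparison, edgeR recovered 4 of 67 genes changed 1.5-fold, 38 of 67 changed 2-fold and 58 of 66 changed 4-fold. The changed genes were drawn at random from all genes tested. The 38 early genes spread more within Hhex KO (median SD 0.580 against 0.259 on the log2 scale), so recovery may be lower for them.

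The genes, role groups and lists were chosen with earlier results of these data known. Values in every library are given for genes that passed the test, for the gene with the highest level of each role group and for genes whose groups do not overlap. From other lists the genes that passed, or up to 4 with the smallest p, were to be named. Dusp1, the heat shock genes, 7 clock genes and the T cell and myeloid markers given singly were added after their values were seen. Mkl1 and Mkl2 matched no row by symbol. Alternatives were scaling by RLE or by upper quartile, leaving out the filter, a stricter filter (10 CPM or more in 3 libraries or more), a replicate block, limma-voom from limma 3.58.1, the same with weights for sample quality, DESeq2 1.42.0, each library left out and, chosen after seeing the data, Hhex KO replicates 1 and 4 left out together.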

Additional observations from a re-analysis of the deposited data

Results flagged for a closer look

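In the 4 Hhex KO libraries, 5 of 38 genes had 1 library set apart from the other 3 by a gap past Dixon's 95% critical value, where chance flags about 1 in 20 groups. The share was 13.2% of the 38 genes and 4.00% of the 12161 genes tested. Hhex KO replicate 1 was the high library for Maff (4.86 CPM), Mafk (95.8 CPM), Gadd45b (21.2 CPM) and Plk3 (13.9 CPM). Hhex KO replicate 4 was the high library for Gadd45g (12.8 CPM). Groups of 3 libraries were not examined in this way.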

How the results depend on the processing

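Over all genes tested, 326 were higher and 228 lower (554 in all). The counts moved by more than 1.5 times with DESeq2 (625, 469 and 1094), sample quality weights (1534, 1325 and 2859), the stricter filter (186 higher, 369 in all) and Hhex KO replicates 1 and 4 both left out (1754, 1790 and 3544), and with the block to 499 higher. Leaving out 1 library at a time gave 91 to 527 higher, 50 to 291 lower and 141 to 818 in all. The 6 early genes that fell became 16 with DESeq2, 28 with quality weights, 18 with Hhex KO replicates 1 and 4 left out and 0 to 15 with 1 library left out, and limma-voom gave 9. RLE and upper-quartile scaling and the stricter filter kept the same 6; no filter gave 7, without Rhob and with Fosl2 and Gadd45b. The number of early genes that rose was 0 in all 16 alternatives. Of the 38 fold changes, Ifrd1 alone turned sign: leaving out 1 library gave -0.14 to 0.04, with 0.04 when Cre control replicate 1 and 0.03 when Hhex KO replicate 3 was dropped. The cause of these moves was not tested, except that fewer samples or genes entered some fits.

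The replicate numbers are not known to pair the samples. Deviations from the group means correlated at 0.33, 0.51 and -0.10 for numbers 1, 2 and 3, and Cre control replicate 3 correlated best with Hhex KO replicate 1. With the replicate block on the 6 libraries numbered 1 to 3, 774 of 12127 genes tested were called, 275 of them lower, and 16 early genes fell. The same libraries and genes with no block gave 818 calls, 291 of them lower (2.40%), and 8 early genes that fell. Depth limits the genes near 1 CPM, such as Ier3, Atf3 and Trib1. Changes of 1.5-fold were mostly missed in simulation.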
